A study of Mus musculus with 4 samples.

Results

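Very broad open regions of mouse hair follicle stem cells were described by ATAC-seq, an assay that tags accessible DNA with a transposase. They were selected on width: all peaks of 2500 bp or more in the wild-type (WT) peak list, mitochondrial peaks excluded, which gave 668 of 68192 WT peaks, or 0.980%. Each was read together with the peaks of the double-knockout (dKO) list that overlapped it by at least 1 bp. The 2 dKO mice, numbers 14 and 16, carried Sox9-CreER, floxed alleles of Nfib and Nfix (NFIBfl/fl;NFIXfl/fl) and the R26-YFPfl/fl reporter. The 2 WT mice, numbers 13 and 15, had the same floxed alleles and reporter but no Cre. Sox9-CreER is expressed in Sox9-positive cells, so recombination reaches these cells and their descendants once CreER is activated with tamoxifen, whose timing is not given in the sources used here. All mice were male and were taken at postnatal day 70, in the second telogen, and live back skin cells were sorted as Sca-1 negative, integrin alpha 6 positive and CD34 positive. The dKO gate also asked for YFP, a difference between the sorts that cannot be told apart from genotype. The deposited files hold 1 peak list per genotype, so no value has a replicate check, no difference was tested, and the 95% intervals below cover counting error only.

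Hair follicle stem cells rest in the bulge of the follicle during telogen. NFIB and NFIX, DNA-binding factors of the nuclear factor I family, act in these cells, and the study compared open chromatin with and without them. Most open regions are a few nucleosomes wide at an active promoter or an enhancer. Much wider ones can arise where neighbouring promoter and enhancer elements lie close enough for a peak caller to join them, and they are often seen at strongly transcribed or cell identity genes.

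The lists differed in depth, which touches each comparison of width and pileup. The lowest local background was 2.73 in the dKO list and 5.29 in the WT list, a WT to dKO ratio of 1.94. The median peak was 691 bp wide with a pileup of 38 in dKO, against 768 bp and 73 in WT, where pileup is the number of reads or fragments stacked at the summit. Scaled values below divide a width or pileup by its own list's median. Hair follicle stem cell markers had a peak within 1 kb of a gene end in both lists, 10 of 10 genes in dKO and 10 of 10 in WT. Markers of other cells were not all without a peak: fibroblast genes had 2 of 6 in dKO and 3 of 6 in WT, melanocyte genes 3 of 6 in both, endothelial genes 3 of 6 in both, and immune genes 1 of 6 in dKO and 2 of 6 in WT. The share of all protein-coding genes with such a peak is not given here, so these counts alone do not identify the cells. The part of other cells in the results was not tested.

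Sequences around start sites are shown for broad regions and for stem cell genes under narrower peaks. Each runs from 250 bases before to 50 after a start site (RefSeq, build GRCm38.p6), with CpG dinucleotides in capitals. Tgif1, Dusp7 and Zfp36l1 belong to the widest regions, Enpp4 to the broad region with a start site that was least covered by dKO peaks, and Cd34 and Krt14 are stem cell markers under WT peaks of 1383 and 988 bp.
Tgif1, chr17:70851685-70851984, - strand: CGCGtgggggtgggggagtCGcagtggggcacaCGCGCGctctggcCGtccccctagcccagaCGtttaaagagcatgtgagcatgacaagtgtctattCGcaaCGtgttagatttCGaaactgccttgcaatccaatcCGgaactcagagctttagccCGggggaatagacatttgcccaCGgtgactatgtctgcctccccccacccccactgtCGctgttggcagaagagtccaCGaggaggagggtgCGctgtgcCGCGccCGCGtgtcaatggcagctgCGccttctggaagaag
Dusp7, chr9:106368382-106368681, + strand: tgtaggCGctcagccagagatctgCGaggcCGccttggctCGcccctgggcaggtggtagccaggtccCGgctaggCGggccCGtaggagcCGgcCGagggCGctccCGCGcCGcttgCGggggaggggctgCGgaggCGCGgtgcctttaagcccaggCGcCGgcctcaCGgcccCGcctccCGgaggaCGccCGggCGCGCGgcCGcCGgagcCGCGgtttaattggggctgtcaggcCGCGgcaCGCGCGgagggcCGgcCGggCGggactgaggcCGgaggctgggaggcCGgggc
Zfp36l1, chr12:80112964-80113263, - strand: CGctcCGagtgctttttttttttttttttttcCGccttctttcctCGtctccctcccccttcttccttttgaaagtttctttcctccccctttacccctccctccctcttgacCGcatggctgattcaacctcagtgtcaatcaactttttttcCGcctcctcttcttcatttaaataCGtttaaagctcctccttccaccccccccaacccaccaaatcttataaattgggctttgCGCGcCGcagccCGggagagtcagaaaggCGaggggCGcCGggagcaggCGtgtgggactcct
Enpp4, chr17:44105760-44106059, - strand: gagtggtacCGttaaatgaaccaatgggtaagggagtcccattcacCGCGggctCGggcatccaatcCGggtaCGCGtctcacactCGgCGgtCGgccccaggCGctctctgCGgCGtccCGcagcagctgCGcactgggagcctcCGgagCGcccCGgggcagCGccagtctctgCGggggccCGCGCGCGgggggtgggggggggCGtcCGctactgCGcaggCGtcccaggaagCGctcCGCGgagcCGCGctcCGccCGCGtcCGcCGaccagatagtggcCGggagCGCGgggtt
Cd34, chr1:194938571-194938870, + strand: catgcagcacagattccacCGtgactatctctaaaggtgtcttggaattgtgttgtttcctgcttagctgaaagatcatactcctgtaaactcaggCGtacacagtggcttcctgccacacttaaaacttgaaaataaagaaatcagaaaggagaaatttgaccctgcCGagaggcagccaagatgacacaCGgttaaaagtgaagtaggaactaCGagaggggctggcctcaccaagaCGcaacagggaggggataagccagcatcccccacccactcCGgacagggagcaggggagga
Krt14, chr11:100205981-100206280, - strand: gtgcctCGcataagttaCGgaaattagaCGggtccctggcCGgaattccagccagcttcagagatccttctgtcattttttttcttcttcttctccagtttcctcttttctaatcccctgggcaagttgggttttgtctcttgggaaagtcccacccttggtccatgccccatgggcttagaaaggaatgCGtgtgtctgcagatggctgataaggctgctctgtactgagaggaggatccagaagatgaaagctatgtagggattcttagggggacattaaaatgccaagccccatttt
The window held 22 CpG at Tgif1, 41 at Dusp7, 15 at Zfp36l1 and 41 at Enpp4, against 7 at Cd34 and 5 at Krt14. These examples lie on either side of the median of 24 for all start sites in broad regions. Narrow width and few CpG did not always go together: Lhx2, a bulge transcription factor gene, had 34 CpG under a WT peak of 1394 bp.

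The widest regions near genes lay at Tgif1, Dusp7, Marcks and Zfp36l1. Tgif1, a repressor of TGF-beta and retinoid responses, had 1 dKO peak of 4618 bp over its WT peak of 4630 bp (chr17:70848789-70853418, mm10), with a pileup of 205 in dKO, 5.39 times the list median, and 439 in WT, 6.01 times. Marcks, an actin-binding substrate of protein kinase C, had a dKO peak of 4621 bp over a WT peak of 4475 bp (chr10:37136429-37140903). At the plectin gene Plec, which links keratin filaments to hemidesmosomes, the dKO peak of 4436 bp was also wider than the WT peak of 4230 bp (chr15:76195622-76199851). These 3 regions were covered over 99.6% or more of their width by 1 dKO peak. Snx18, a sorting nexin gene, and the region shared by Hcfc1r1, Thoc6 and the TWEAK receptor gene Tnfrsf12a were likewise whole in dKO, with 97.2% and 98.0% cover.

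Other wide regions were interrupted in the dKO list. Dusp7, a phosphatase of ERK, had 2 dKO peaks, the wider of 3092 bp, over a WT peak of 4610 bp (chr9:106367235-106371844), and 74.4% of the region was covered. At Zfp36l1, whose protein speeds the decay of AU-rich mRNAs, the widest dKO peak was 3297 bp against 4395 bp in WT (chr12:80112243-80116637), with 80.2% covered by 2 peaks. The AP-1 subunit gene Junb had 2 dKO peaks, the wider of 2959 bp, against 1 WT peak of 4365 bp (chr8:84975855-84980219). Dusp4, another MAP kinase phosphatase, had a widest dKO peak of 2242 bp against 4346 bp in WT (chr8:34804690-34809035), and Atf3, a stress-induced transcription factor, 3262 bp against 4236 bp (chr1:191182569-191186804). Cover of these last 3 was 85.6%, 85.5% and 93.6%.

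**Figure D1:**
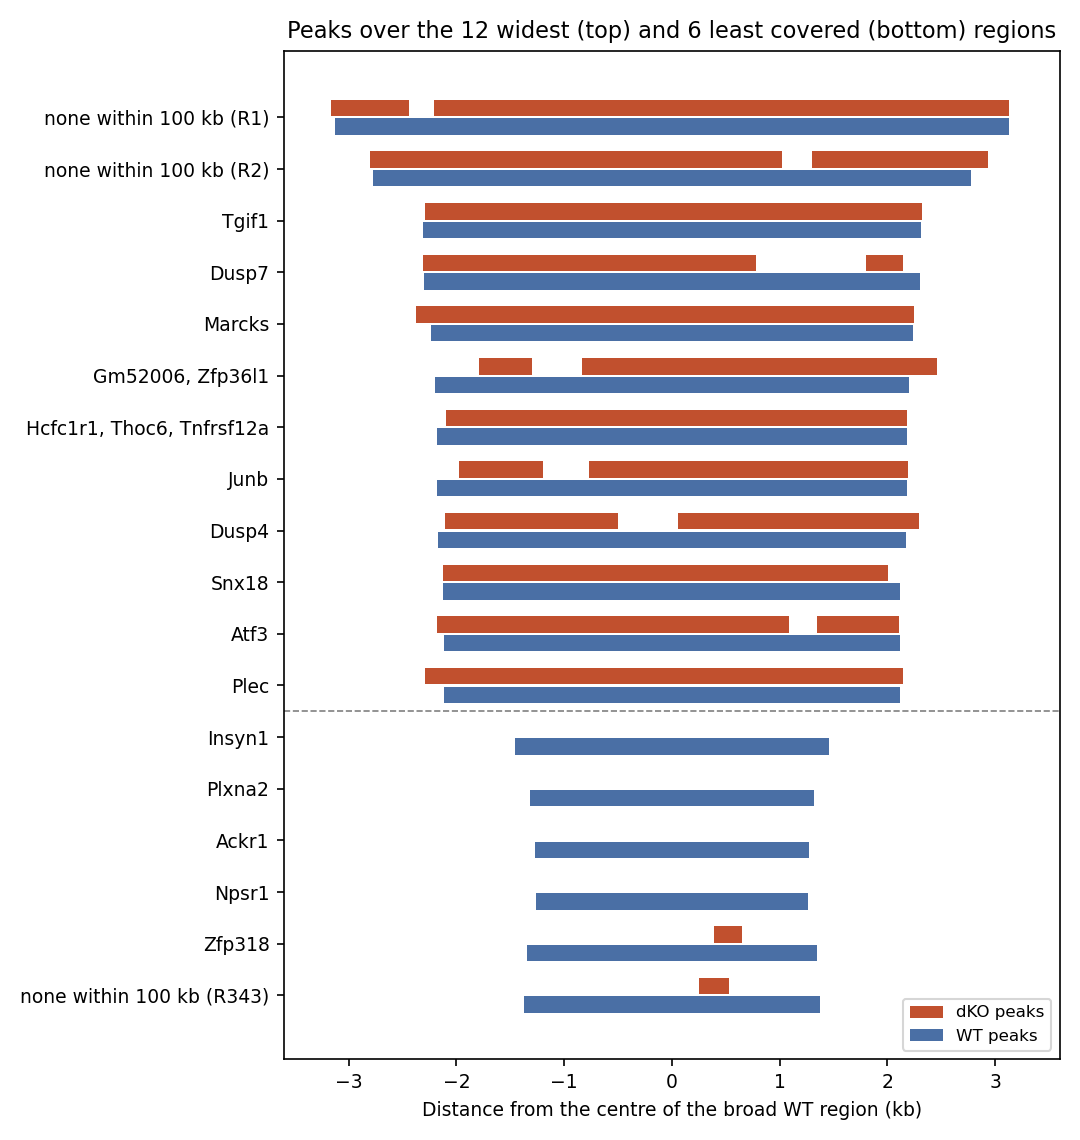
Peaks of the dKO list (upper bar of each pair) and of the WT list (lower bar) over the 12 widest regions, above the dashed line, and the 6 regions least covered by dKO peaks, below it, by distance in kb from the centre of the WT region. Tgif1, Marcks, Plec, Snx18 and Hcfc1r1 had 1 dKO peak, Dusp7, Zfp36l1, Junb, Dusp4 and Atf3 had 2, and 4 of the least covered regions had none. Rows without a gene name are members over 100 kb from one, numbered by rank of width.

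Broad regions were nearly always found again in the dKO list, but often as more than 1 peak. Of the 668 regions, 4 had no dKO peak (0.599%, interval 0.233 to 1.53), 469 had 1, 179 had 2 and 16 had 3. Over all WT peaks 24.6% had no dKO peak, a share that fell with WT width to 0.385% at 2000 to 2499 bp (0.187 to 0.794). The 195 regions with 2 or more dKO peaks made 29.2% (25.9 to 32.8), against 1.68% of all WT peaks and 16.7% of those of 2000 to 2499 bp (15.1 to 18.5). A wide interval has more room for several peaks, and the share rose with width throughout, through 0.0651% under 1000 bp, 1.52% at 1000 to 1499 bp and 6.64% at 1500 to 1999 bp.

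The same rule applied to the dKO list gave 423 peaks of 2500 bp or more, 0.666% of 63545. Of these, 45 had 2 or more WT peaks (10.6%, interval 8.05 to 13.9), against 0.5% of all dKO peaks, and 0 lacked a WT peak, which allows a share of up to 0.709%. Several peaks over 1 were thus more frequent when the broad peak was chosen in the deeper WT list, and depth, the YFP gate and genotype cannot be told apart in this difference. Among the 223 regions with the highest WT pileup, 393 to 4295, the share with 2 or more dKO peaks was 20.2% (15.4 to 25.9), and among the 223 with the lowest, 30 to 236, it was 39.0% (32.8 to 45.5). The broad dKO peaks had shares of 9.22% (5.47 to 15.1) at pileups of 192 to 888 and 13.5% (8.80 to 20.1) at 38 to 130.

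**Figure D2:**
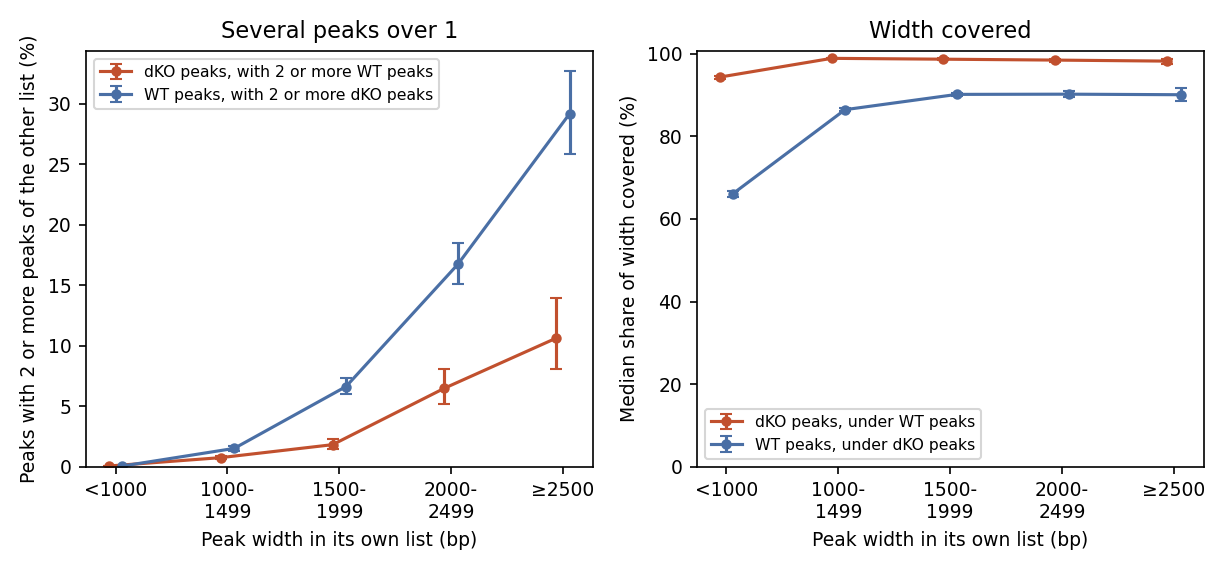
Left, percent of peaks overlapped by 2 or more peaks of the other list (Wilson 95% interval), and right, median percent of width covered by the other list (95% order-statistic interval), for dKO and WT peaks by width class in bp. At 2500 bp or more the values are 10.6% and 98.2% for dKO peaks, and 29.2% and 90.1% for WT peaks.

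Most of the width of a broad region was also under dKO peaks. Median cover of the 668 regions by dKO peaks was 90.1% (88.5 to 91.8), and 10% of regions had 60.2% or less. Under 50% of the width was covered in 37 regions (5.54%, interval 4.05 to 7.54), against 31.1% of all WT peaks and 7.43% of those of 2000 to 2499 bp. WT peaks covered a median of 98.2% (97.5 to 98.8) of the broad dKO peaks. By bases, dKO peaks covered 84.4% of the broad WT regions, and WT peaks 94.1% of the broad dKO peaks.

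None of the 6 least covered regions lay at a gene end. No dKO peak was found over chr9:58440122-58443028, 45.6 kb from Insyn1, chr1:194591374-194594001, 25.8 kb from the semaphorin receptor gene Plxna2, chr1:173323945-173326486, 5.40 kb from the chemokine-binding receptor gene Ackr1, or chr9:24313583-24316101 inside the neuropeptide S receptor gene Npsr1. Their WT pileups were 156, 407, 297 and 76, all above the WT list median of 73. Inside Zfp318 (chr17:46412551-46415243) a dKO peak of 264 bp covered 9.80% of 2693 bp, and 173 kb from Tenm4 (chr7:95995498-95998253) a dKO peak of 280 bp covered 10.2% of 2756 bp. The least covered region with a start site, at Enpp4 (chr17:44105351-44108063), had 1 dKO peak of 901 bp over 31.4% of 2713 bp.

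The uncovered bases lay away from the summit. Within 250 bp of the WT summit, dKO peaks covered 96.3% of bases, at 750 to 999 bp 80.6%, and at 2250 to 2499 bp 72.6%. The broad dKO peaks showed the same order at a higher level, with WT peaks over 99.8%, 93.1% and 82.1% of bases at these distances. Between the dKO peaks of the 195 split regions lay 211 gaps with a median length of 424 bp, from 212 to 1571 bp, and 63 were under 300 bp. The middle of a gap was a median of 934 bp from the WT summit, and 1 gap spanned the summit. Of the 46 gaps between WT peaks in broad dKO peaks the median length was 308 bp and the longest 906 bp.

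**Figure D3:**
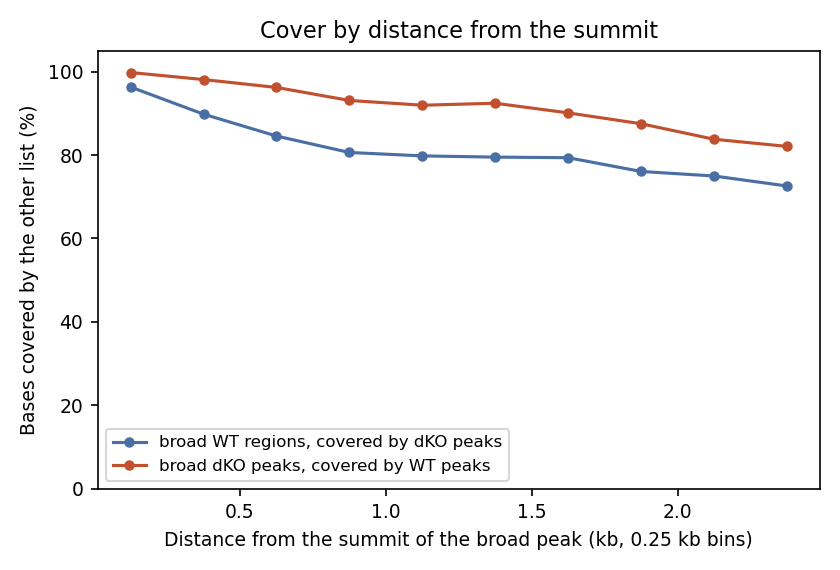
Percent of bases covered by peaks of the other list against distance from the summit of the broad peak in kb, in bins of 250 bp. Cover of broad WT regions by dKO peaks declines to 72.6% in the outermost bin and cover of broad dKO peaks by WT peaks to 82.1%.

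The 6 widest of the regions with 3 dKO peaks lay at Gnas, Rbms3, Tacc1, Igsf8, Wnt11 and Morc2a. At Gnas, the imprinted locus of the stimulatory G protein alpha subunit, the widest dKO peak was 926 bp against 3637 bp in WT (chr2:174327250-174330886), and 63.2% was covered. The region held 3 start sites, and its scaled pileup was 2.29 in dKO and 1.89 in WT, so the summit was not lower relative to its list. At Rbms3, an RNA-binding protein gene, 49.0% of 3585 bp was covered (chr9:117250008-117253592). The region 17.0 kb from Wnt11 (chr7:98814929-98818109) was covered over 61.8%, with a scaled pileup of 2.21 in dKO and 3.89 in WT. Igsf8, a cell surface immunoglobulin protein gene, had 75.9% cover and its summit 1 bp from the WT summit.

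Widths were chosen in WT, so their comparison is a description. The widest dKO peak per region, scaled to the dKO list, stood at a median log2 ratio to the scaled WT width of −0.003, with 10% of regions at −1.05 or less and 10% at 0.18 or more. The sign of so small a value turned with the choice of scale, as given in the closing section. The broad dKO peaks had a median log2 ratio of dKO over WT of 0.15. Regions of 2500 bp or more in both lists numbered 319, which is 75.4% of the broad dKO peaks and 47.8% of the broad WT regions. The other 104 broad dKO peaks had widest WT peaks of at least 1110 bp with a median of 2172 bp. Of the other 349 broad WT regions, 4 had no dKO peak. The rest had widest dKO peaks of at least 264 bp with a median of 1797 bp. At a dKO threshold of 2249 bp, scaled by the list medians, 400 of the 668 WT regions (59.9%) had such a dKO peak. In 109 regions (16.3%) a dKO peak was wider in bp than the WT peak. Among the 6 widest dKO peaks, 1 at chr6:41556626-41560999, 31.5 kb from the trypsin gene Prss2, was 4374 bp against 2987 bp in WT, and 1 at the adaptor gene Shb was 4348 bp against 3319 bp.

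Around the threshold, the widest dKO peak ran from 280 to 2503 bp for the 4 narrowest members and from 904 to 2248 bp for the 4 peaks just outside. Inside Lpp, a focal adhesion protein gene, the WT width was 2500 bp and the widest of 2 dKO peaks 280 bp. Pls3 had 2503 bp in dKO and 2501 bp in WT, the Tapbp and Zbtb22 region 2404 and 2502 bp, and Parp8 2368 and 2503 bp. Just outside were Hsf2 with 2248 bp in dKO and 2499 bp in WT, Myh9 with 1102 and 2499 bp, Mllt3 with 1265 and 2499 bp, and Heg1 with 904 and 2498 bp.

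Broad regions were high in pileup within their own list. The median pileup was 159 for the 423 broad dKO peaks, 4.18 times the dKO list median, and 308.5 for the 668 broad WT regions, 4.23 times the WT list median. Fold over local background did not follow width in 1 direction. In dKO its median was 5.36 under 1000 bp, 10.3 at 1000 to 1499 bp and 7.11 at 2500 bp or more, and in WT 4.94, 9.86 and 6.30, the last close to the 6.37 of all WT peaks. The median background in WT was 17.2 at 1000 to 1499 bp and 49.0 at 2500 bp or more. Region by region, the scaled dKO pileup over the scaled WT pileup had a median log2 ratio of −0.24, with 10% at −0.68 or less and 10% at 0.31 or more. All WT peaks with a dKO peak had a median of −0.14, those of 2000 to 2499 bp −0.24, and the broad dKO peaks −0.24 as well. When fold replaced pileup the median over the broad WT regions was 0.19, the opposite sign. So no direction is drawn from this median. Of the 664 regions with a dKO peak, 24 had a ratio of 0.5 or less (3.61%, interval 2.44 to 5.32), against 9.25% of all WT peaks with a dKO peak. A ratio of 2 or more was found in 5 (0.753%), against 7.49%.

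**Figure D4:**
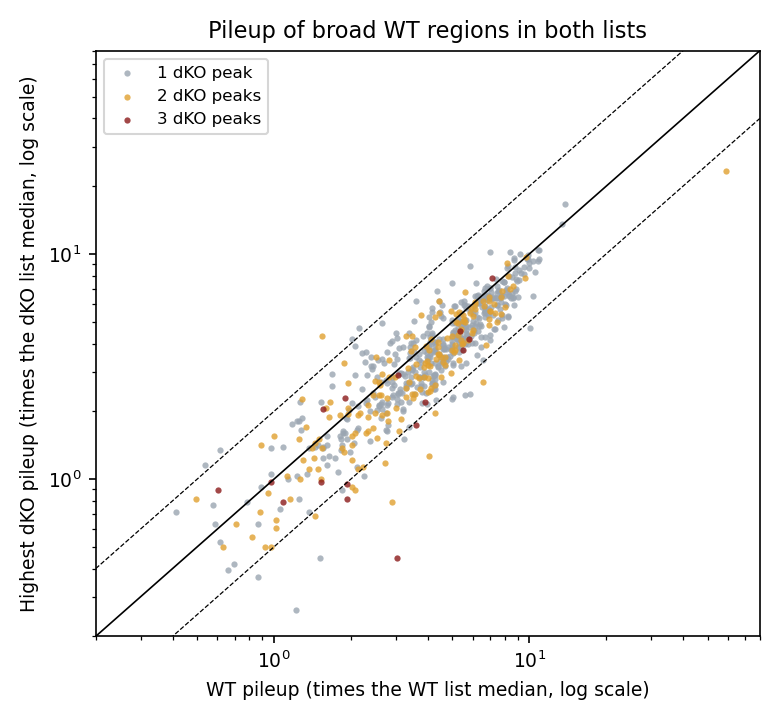
Highest dKO pileup against WT pileup for the 664 broad WT regions with a dKO peak, each divided by its list median, on log axes, coloured by number of dKO peaks. The solid line marks equal scaled pileup and the dashed lines ratios of 0.5 and 2, which 24 and 5 regions reached.

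The lowest ratio was inside Hadha, a subunit gene of the mitochondrial trifunctional protein (chr5:30126250-30129037). Its pileup was 17 in dKO and 221 in WT, or 0.447 and 3.03 times the list medians, a log2 ratio of −2.76, and 3 dKO peaks covered 49.9% of the region. Inside the Wnt coreceptor gene Lrp5 (chr19:3622894-3625473) the pileup was 17 in dKO and 110 in WT (log2 ratio −1.75), with 13.6% covered. The region 6.68 kb from Pdzd7 (chr19:45065315-45067898) had 48 in dKO and 296 in WT (−1.68), and that 19.9 kb from 1700080O16Rik on the X chromosome 30 and 212 (−1.88). None of these 4 regions was at a gene end. Their scaled fold ratios were −0.61, −0.51, −0.12 and −0.24, but fold is computed from the pileup that selected them and is no separate check. Also among the 6 lowest by pileup were the region 173 kb from Tenm4, at −0.82 by scaled fold, and chr17:39843116-39848667, at 0.02. Among the highest ratios, the cell adhesion gene Chl1 (chr6:103509538-103512556) had a pileup of 178 in dKO and 157 in WT (log2 ratio 1.12), Opcml (chr9:28403221-28406282) 44 and 39 (1.12), and Bcl3, an NF-kappa B cofactor (chr7:19815918-19818506), 160 and 147 (1.06). Their raw pileups were close between the lists, and these ratios, like all scaled ratios here, rest on the scaling to list medians. Their scaled fold ratios were 0.38, 0.03 and 0.31, where 83.3% of the 664 regions were above 0.

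The 2 widest members were far from protein-coding genes and had pileup ratios of opposite sign, though not scaled fold ratios, which were 0.24 and 0.02. The widest, chr9:3021552-3027811, spanned 6260 bp, with a widest dKO peak of 5340 bp, and its pileup was 165 in dKO and 112 in WT, a log2 ratio of 1.50. Members at chr9:3012894-3016600 and chr9:3000008-3003448 lay in the same stretch at the start of the chromosome assembly and had ratios of 1.12 and 0.90. The second widest, chr17:39843116-39848667, overlapped the ribosomal RNA pseudogene Rn18s-rs5 and the noncoding gene AY036118. Its pileup of 888 in dKO and 4295 in WT was the highest of either nuclear list's broad peaks, and its local background of 1404 in WT was likewise far above the median of 49.0. Such loci can collect reads from repeated sequence, which was not tested here. In all, 17 members were over 100 kb from a protein-coding gene, and among them chr11:112924494-112927146, lay 137 kb from Sox9, the nearest gene, with a dKO peak of 2378 bp against 2653 bp in WT.

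Summits of the lists lay apart more often in broad regions than over all WT peaks. The highest dKO summit was over 200 bp from the WT summit in 169 of 664 regions (25.5%, interval 22.3 to 28.9), against 10.6% of all WT peaks with a dKO peak and 21.6% of those of 2000 to 2499 bp. The median shift was 63 bp. The share was 13.5% in the regions with the highest WT pileup and 39.4% in those with the lowest, and it was 25.3% for the broad dKO peaks. At Atf3 the summits were 1777 bp apart, and at Junb 993 bp. The WT summit itself was under a dKO peak in 655 of 664 regions (98.6%). That share was near the 97.9% of all WT peaks with a dKO peak and the 98.7% at 2000 to 2499 bp.

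Broad regions were mostly at gene ends. A stretch within 1 kb of an end of a protein-coding gene was overlapped by 432 of 668 (64.7%, interval 61.0 to 68.2), against 20.1% of all WT peaks. A further 137 (20.5%) lay inside gene bodies and 99 (14.8%) between genes. Wide peaks reach a gene end more easily, and by summit alone the share was 47.9%, against 46.6% at 2000 to 2499 bp, 45.0% at 1500 to 1999 bp and 18.1% of all WT peaks. Gene-end regions were the least interrupted in dKO: 25.2% had 2 or more dKO peaks (21.4 to 29.5), with median cover of 92.2%. Regions in gene bodies had 36.5% (28.9 to 44.8) with median cover of 85.5%, and those between genes 36.4% (27.6 to 46.2) with 85.3%. Under 50% cover was found in 9 of 432 at gene ends (2.08%), 15 of 137 in gene bodies (10.9%) and 13 of 99 between genes (13.1%). WT peaks of 2000 to 2499 bp had the same contrast, with 2 or more dKO peaks in 11.6% at gene ends, 23.9% in gene bodies and 21.9% between genes, and under 50% cover in 1.99%, 14.1% and 14.4%. The pileups of these classes differed too, with WT medians of 326.5 at gene ends, 253 in gene bodies and 284 between genes, and the part of strength in the difference was not tested.

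Start sites placed by RefSeq lay in 354 of the 649 members on chromosomes with placed start sites (54.5%, interval 50.7 to 58.3), against 46.6% at 2000 to 2499 bp and 14.5% of all WT peaks. Several start sites lay in 83 (12.8%), against 11.3% at 2000 to 2499 bp and 2.65% of all WT peaks. Sites on both strands lay in 31 (4.78%), against 4.50% at 2000 to 2499 bp and 1.22% of all WT peaks. In the 271 members with 1 start site, the median reach was 1184 bp upstream and 1654 bp downstream, and the downstream side was the longer in 174 (64.2%). This lean was shared by the narrower classes, at 63.2% for 2000 to 2499 bp and 66.8% for 1500 to 1999 bp. The share of bases outside dKO peaks was 13.9% upstream and 10.4% downstream. Gaps between dKO peaks lay on both sides, 35 upstream and 33 downstream of the start site, with 5 across it.

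The start-site windows of broad regions were mostly rich in CpG. Of the sequences above, Dusp7 and Enpp4 lay above the median of members, and Tgif1 and Zfp36l1 below it. The median was 24 CpG per 300 bases in members, with a GC content of 65.7%, against 26 at 2000 to 2499 bp, 25 at 1500 to 1999 bp, 21 at 1000 to 1499 bp, 16 under 1000 bp and 3 at start sites without a WT peak. The count thus levelled off above 1500 bp. The motif TTGGCA, the arm of the NFI site, or its other strand TGCCAA, was found in 44 of 470 windows of members (9.36%), against 6.69% at 2000 to 2499 bp, 10.1% at 1500 to 1999 bp, 16.3% at start sites without a WT peak and 13.1% of all windows. The palindromic NFI site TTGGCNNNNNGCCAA was in 0 of 470 and in 7 of 21263 windows in all. The AP-1 motif TGANTCA was in 23 (4.89%), against 4.46% at 2000 to 2499 bp, 9.59% at start sites without a WT peak and 6.99% of all windows. Windows of members with 2 or more dKO peaks held TTGGCA or TGCCAA in 10.6% and those of members with 1 dKO peak in 8.93%, and the median CpG was 25 and 24. These motifs were counted in start-site windows only, which are a small piece of each region. The motif shares were not adjusted for base composition, so no depletion or enrichment is read from them. Median GC content was 65.7% in members, 48.7% at start sites without a WT peak and 56.3% over all windows.

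Bulge stem cell genes and immediate early genes were the lists with the largest shares of genes near a broad region. Over all protein-coding genes, 3.27% had a member as overlapping or nearest gene. Of 25 bulge stem cell identity genes 10 did (40.0%, interval 23.4 to 59.3), among them the targeted genes Nfib and Nfix. Of 28 immediate early and AP-1 genes 11 did (39.3%, 23.6 to 57.6). The other lists had 5 of 30 epithelial and hair lineage transcription factors, 3 of 21 receptor tyrosine kinase and MAP kinase genes, 3 of 22 basal keratin, hemidesmosome and junction genes, 4 of 31 WNT, BMP and TGF-beta genes, 2 of 19 chromatin and transcription genes, 2 of 20 housekeeping genes, 2 of 22 YAP and cytoskeletal genes, and 3 of 41 homeobox and other developmental regulators. These genes were picked by hand with results of these data known, and long genes have more room for a member, so the shares are descriptions.

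**Figure D5:**
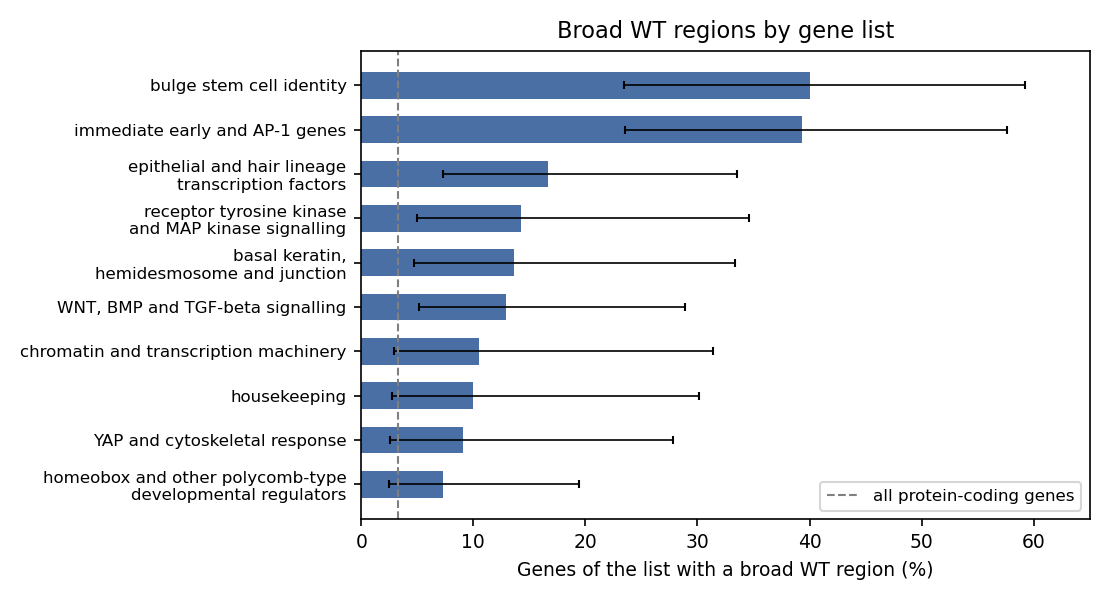
Percent of the genes of each list with at least 1 broad WT region as overlapping or nearest protein-coding gene (bars, with Wilson 95% intervals), and the same over all protein-coding genes (dashed line, 3.27%). The bulge stem cell list is at 40.0% and the immediate early list at 39.3%.

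The bulge list had 11 members, of which 4 had 2 or more dKO peaks (36.4%, against 29.2% of all members). Median cover was 74.5% against 90.1% over all members, and the median pileup log2 ratio −0.36 against −0.24. The 11 include the targeted genes Nfib, with 40.8% cover, and Nfix, with 69.7% cover and 2 dKO peaks. These figures therefore do not describe bulge genes apart from the targets. Nfatc1, a transcription factor that keeps bulge cells quiescent, had 2 members, covered by 1 dKO peak each over 98.5% and 97.2%, with widths of 3477 bp in dKO and 3530 bp in WT, and 2647 and 2724 bp. Tcf7l2, a Wnt effector, had 2 dKO peaks with a widest of 1259 bp against 3580 bp in WT (chr19:55749571-55753150), and 54.8% cover. The integrin alpha 6 gene Itga6, a marker of the sort, had 2 dKO peaks with a widest of 1226 bp against 2606 bp (chr2:71800094-71802699), and 56.1% cover. Cover was 62.5% at Tcf7l1, a Wnt repressor of the bulge, 74.5% at the bulge keratin gene Krt15, 88.6% at Foxp1, a regulator of stem cell quiescence, and 98.4% at the Wnt inhibitor gene Sfrp1. At Krt15 the pileup was 50 in dKO and 145 in WT (log2 ratio −0.59), and at Tcf7l1 224 and 372 (0.21), while the scaled fold ratios were 0.60 and 0.66. By pileup 9 of the 11 members were below 0, and by scaled fold 9 of the 11 were above 0.

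Both targeted genes had a broad WT region whose widest dKO peak was narrower, as in 554 of the 668 members (82.9%). Inside Nfib (chr4:82325822-82328555) a dKO peak of 1115 bp stood against 2734 bp in WT, with 40.8% cover and a pileup of 53 in dKO and 113 in WT (log2 ratio −0.15 by pileup and 0.29 by scaled fold). At an end of Nfix (chr8:84798789-84801315) 2 dKO peaks, the wider of 1539 bp, stood against 2527 bp in WT, with 69.7% cover and a pileup of 50 in dKO and 137 in WT (−0.51 and 0.04). Cover of 40.8% is within the lowest 37 of the 668 regions. Whether these stretches hold the floxed exons was not analysed here. Nfia, Nfic and Sox9 had 0 members.

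Immediate early genes, which are known for rapid induction by many stimuli, had 12 members at 11 genes. Of these, 7 had 2 or more dKO peaks (58.3%, against 29.2% of all members and 38.9% of those of 3000 bp or more). With 12 members of a list picked by hand, and no interval given, this share is a description only. The median cover was 88.9% against 90.1% over all members, and the median pileup log2 ratio −0.46 against −0.24. Fosb had 2 members with 2 dKO peaks each, the first with 2647 bp in dKO and 3960 bp in WT (chr7:19300065-19304024). The pileup log2 ratio was −0.54 at Ier2, −0.56 at Egr2, −0.47 at Myc, −0.44 at Atf3 and −0.58 at Junb. Values near 0 were found at Jun (−0.04) and Fosl2 (−0.10), and Klf9 was at 0.26. By pileup 11 of the 12 members were below 0, as were 76.5% of the 664 members with a dKO peak, and by scaled fold 10 of the 12 were above 0, as were 83.3% of the 664. Scaled fold gave log2 ratios of 0.20 at Junb, 0.16 at Ier2, 0.34 at Myc and 0.04 at Egr2, so no direction is drawn for this list.

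In the other lists, pileup ratios had both signs. Scaled fold ratios were above 0 at every member except 1 of 4 in the WNT, BMP and TGF-beta list. Actb, the beta actin gene, had a pileup of 88 in dKO and 366 in WT (log2 ratio −1.11) with 81.7% cover (chr5:142904741-142907626), and the cyclophilin gene Ppia 93 and 278 (−0.64), while their scaled fold ratios were 0.12 and 0.25. Wnt5a, a noncanonical Wnt ligand, had 69 in dKO and 91 in WT (0.54), the TGF-beta binding protein gene Ltbp1 124 and 137 (0.80), and Amotl1, a YAP-binding protein gene, 126 and 166 (0.54), with scaled fold ratios of 0.07, 0.45 and 0.49. Bmp2, a BMP ligand gene, was covered over 97.9% with a ratio of −0.16. The tetraspanin gene Cd9 had 2 dKO peaks, the wider of 1652 bp, against 4215 bp in WT (chr6:125491297-125495511). The genes with the most summed width of members were Plec, Ptprg, Fosb, Nfatc1, Bnc2, Cpne8, Vav3 and Rnf217, with 2 members each. At Bnc2, a zinc finger gene, 1 member kept 97.9% cover and the other, chr4:84537851-84541051, 44.5%, with 1426 bp in dKO and 3201 bp in WT. At the phosphatase gene Ptprg 1 member had 100% cover and the other 3 dKO peaks over 64.6%.

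A broad region on chromosome 6 held a microRNA cluster known as an epithelial marker. Mir200c and Mir141, whose products repress the transcription factors ZEB1 and ZEB2, lay in chr6:124717070-124719688, 0.125 kb from Phb2, where 2 dKO peaks covered 82.2% of 2619 bp, with a pileup of 148 in dKO and 287 in WT (log2 ratio −0.01). Their mature sequences (RefSeq, GRCm38.p6) are shown with the seed, bases 2 to 8, in capitals.
mmu-miR-200c-3p: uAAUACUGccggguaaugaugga
mmu-miR-141-3p: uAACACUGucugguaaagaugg
mmu-miR-200c-5p: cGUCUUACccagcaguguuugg
mmu-miR-141-5p: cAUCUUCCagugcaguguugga
The 4 seeds differ from each other. Of 1005 microRNA hairpins, 5 lay in members, those of Mir200c, Mir141, Mir3109, Mir5100 and Gm51264. A mature sequence of Mir1903 also lay in a member, but its hairpin was not among the 5. The same count over all WT peaks is not given here, so nothing about broad regions is read from it.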

How the data were processed

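Peaks of ATAC-seq libraries (50 bp paired reads, HiSeq 2000, per the labels' protocols) from 2 dKO and 2 WT mice were analysed from 2 deposited lists, 1 per genotype. The submitters' processing notes name Bowtie2 2.2.9, Picard and MACS2 with the builds mm10 and GRCm38. Pooling of mice, any transposase read shift and duplicate handling were not given in the sources used here. In the tables, the signal column deposited by the authors is the pileup at each summit, not scaled for depth. Their deposited fold is a ratio, (pileup + 1) / (local background + 1). Both −log10 columns of the authors, for the p-value and the q-value, were found by position, since their header cells were damaged, and a Poisson p-value recomputed from pileup and background matched within 0.01 for 99.997% of 62822 dKO and 99.98% of 62811 WT peaks. In each list the −log10 q started at 1.30.

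Mitochondrial peaks, 3 in dKO and 5 in WT, were left out. Overlaps of at least 1 bp, widths, cover and scaled ratios were computed with Python 3.11.15, pandas 2.3.3, numpy 2.4.6 and scipy 1.17.1, and overlap counts differed by 0 from bedtools 2.31.1. The overlap step was also tested on simulated lists. Where several dKO peaks overlapped, the widest and the highest were used. Shares carry Wilson 95% intervals and medians binomial order-statistic intervals. Genes and their ends came from a RefSeq table of GRCm38.p6 without strand, the nearest gene within 100 kb, and start sites, with strand, from 17492 of 21887 protein-coding genes. The planned share at start sites was therefore given at gene ends, with start sites beside it. Peak sequences were not used here.

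The members, gene lists and rules were chosen with earlier results of these data known. Named are the 12 widest regions, 6 each with the lowest cover, most dKO peaks, lowest and highest pileup ratio, 4 on either side of the threshold, the 6 widest dKO peaks, the NFI genes and Sox9, the 8 genes with most members (15 genes tied at 2 members, of which the 8 with the largest summed width were taken), and up to 4 genes per list by summed width. Other genes of the bulge and immediate early lists, the far members, Enpp4, Lhx2, Cd34, Krt14 and the microRNAs were named after their values were seen. Alternatives were the overlap rule, width and q thresholds, scaling and gene-end window.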

Additional observations from a re-analysis of the deposited data

Results flagged for a closer look

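Mitochondrial peaks, which were left out of all comparisons, held a signal that differed between the lists. Mitochondrial pileup reached 961 times the median of the dKO list and 399 times that of the WT list. There were 3 mitochondrial peaks with a summed width of 9615 bp in dKO and 5 with 8550 bp in WT, of which 2 in dKO and 1 in WT were 2500 bp or wider. Their part in the depth and background of the nuclear lists was not tested.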

How the results depend on the processing

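Over 45 alternatives, 29 kept the value near the one reported, 11 moved it and 5 turned the sign of a median log2 ratio. The scaled width ratio of −0.003 had no stable sign: it was 0.0145 for regions of 2000 bp or more, 0.0263 with summed dKO widths, 0.0777 when scaled to overlapping peaks, and 0.00169 without the 17 members over 100 kb from a gene, a setting chosen after seeing the data, and −0.0658 when peaks had q of 1e-05 or less. The scaled pileup ratio of −0.24 became −0.347 at that q threshold, −0.0659 when scaled to overlapping peaks and 0.192 with fold in place of pileup, also chosen after seeing the data. A width of 2000 bp or more gave 2484 regions, with 20.1% having 2 or more dKO peaks and 57.9% at gene ends, and 3000 bp or more gave 198, with 38.9%, 71.7% and 0% without a dKO peak. At that q threshold, 25.3% had 2 or more dKO peaks. The cover medians, and the shares for broad dKO peaks, stayed near their values under each alternative run. No paired analysis was possible because each genotype has 1 list for both mice, and no mouse could be left out for the same reason. Depth limits every comparison, with a lowest local background of 2.73 in dKO and 5.29 in WT.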
